A study of Arabidopsis thaliana with 72 samples.

Results

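The 10 genes described here control the root stem cell niche, the root cap and cell division, and were followed through 72 RNA sequencing libraries of Arabidopsis thaliana roots. They were chosen by name and gene ID, with earlier results of these data known, and make up 10 of the 33602 genes in the deposited table. The stem cell niche genes were PLT1 (AT3G20840), PLT2 (AT1G51190), SHR (AT4G37650) and SCR (AT3G54220). The root cap genes were SMB (AT1G79580), BRN1 (AT1G33280) and BRN2 (AT4G10350), and the cell division genes were CYCB1;1 (AT4G37490), CDKB2;2 (AT1G20930) and KNOLLE (AT1G08560). All 10 passed the filter on low values, at least 1 RPKM (reads scaled to gene length and library size) in at least 3 libraries, and were among 21206 genes tested. None of the 10 was listed at 0 in any of the 72 libraries.

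Roots came from 8-day-old seedlings of 12 genotypes raised on plates with phosphate (+Pi) or without it (-Pi), with 3 libraries in each of the 24 groups. The wild type was Col-0 (Col). Lines with 1 mutation were phl1, phl2, phl3, phl4 and phr1. Lines that combine phr1 with 1 other mutation were phr1phl4, phr1phl3, phr1phl2 and phr1phl1. The line phr1phl1phl2 is called the triple mutant and phr1phl1phl2phl3 the quadruple mutant. PHR1 and its PHL relatives encode transcription factors of the phosphate starvation response. The libraries were made from whole roots, so a gene of the root tip can read lower because fewer cells of its type were present or because each cell held less of its RNA, and these cannot be told apart. Replicates are described as biological, with no word on whether they grew on separate plates, so the p-values measure the spread between these libraries, which may be technical.

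The root meristem keeps a small group of stem cells around a quiescent centre, and their daughters divide before they elongate and differentiate. PLT1 and PLT2 are AP2-type transcription factors whose graded levels maintain the stem cells and the dividing zone. SHR is a GRAS transcription factor that moves from the central cylinder into the next cell layer, where it acts with SCR, a second GRAS factor, to specify the endodermis and quiescent centre. SMB, BRN1 and BRN2 are NAC transcription factors that drive maturation of the root cap, the sheath over the tip from which old cells die or detach. CYCB1;1 is a mitotic cyclin, CDKB2;2 a plant kinase of the passage from G2 to mitosis, and KNOLLE the syntaxin that fuses vesicles into the new cell plate. In Arabidopsis, low phosphate is known to shorten the primary root and to exhaust its meristem, in a reaction that depends on iron in the medium.

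Levels of the mutated genes bear on how far each label can be relied on. PHR1, PHL1 and PHL2 (AT3G24120) were lower in every library labelled with their mutation than in every other library, with PHR1 at 1.62 to 5.86 RPKM against 15.8 to 27.7. The libraries labelled phl3 had 6.31 to 16.3 RPKM of PHL3 (AT4G13640) and the libraries labelled as the quadruple mutant 5.45 to 16.4, which overlapped the 3.99 to 15.6 of the 54 libraries with no phl3 label. In the libraries labelled phr1phl3 it was at 1.93 to 3.87, below all 54. PHL4 (AT2G20400) was at 2.73 to 5.02 where labelled and 3.21 to 18.7 elsewhere. Genotype names below are therefore the labels of the libraries. The estimated depth lay between 11 and 40.2 M reads, with a median of 22.8 M. Libraries were also sorted into 3 classes on 9147 genes, without the 10 members, from the way gene length and base composition tracked with the values. There were 33 libraries of class 1, split about evenly over the media, 22 of class 2 (18 under -Pi) and 17 of class 3 (16 under +Pi). The 3 libraries of phl2 and of phl3 were all class 3 under +Pi and all class 2 under -Pi. Those of phr1phl3 were all class 1 under +Pi and all class 2 under -Pi. In the quadruple mutant all 3 were class 3 under +Pi, with 2 of class 1 and 1 of class 2 under -Pi. No class was on both media within any of these genotypes, so class and medium cannot be told apart there. Values from a fit with library class as a term are given beside the calls. A list of 13 markers of differentiated root cells summed to between 320 and 550 RPKM in all 24 groups, and none had a group mean under 1 RPKM. Single markers moved more than the sum. By the rule for calls given below, 6 of 13 were called in the response of phl2, phl3 and phr1phl2 (46.2%, background 31.1%, 30.8% and 22%). In Col 0 were called (background 14.4%), and in the other mutants 1 to 3 (7.69% to 23.1%). A list of 5 green tissue markers summed to 204 RPKM in Col under +Pi and 5.48 under -Pi. Under -Pi it summed to 3.75 to 5.73 in phl1, phl2 and phl3, 15.8 in phr1, 54.4 in phr1phl2, 75.1 in phl4, 96 in phr1phl3, 135 in phr1phl1, 184 in the triple mutant, 318 in the quadruple mutant and 1186 in phr1phl4. A list of 4 lateral root initiation markers summed to 11.2 RPKM in Col under +Pi and 6.4 (5.91 to 7.38) under -Pi. The sum rests on few genes, since 2 of the 4 had a mean under 1 RPKM in Col under -Pi. On that medium it was 3 in phr1phl1, phr1phl2, phr1phl3 and phr1phl4, 1 in the quadruple mutant and 0 in phl2 and phl3. Under -Pi it summed to 9.97 (9.01 to 11.1) in phl2, 10.8 (10.4 to 10.9) in phl3 and 9.9 (8.24 to 11.6) in the quadruple mutant, above every Col -Pi library, and to 5.83 to 8 in the other mutants. The part of green tissue, lateral roots or differentiated root cells in the responses to -Pi and the differences from Col described below was not tested.

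Calls were made in a limma fit of all libraries on the log2(RPKM + 1) scale. They needed a fold change of 1 or more on that log2 scale, in either direction, with a Benjamini-Hochberg adjusted p under 0.05. In the response to -Pi within the 12 genotypes, 20 of 120 gene by genotype comparisons were called (16.7%), against 18.1% over all tested genes. Of mutants against Col, 8 of 110 were called under -Pi (7.27%, background 12.3%) and 3 of 110 under +Pi (2.73%, background 6%). The difference between the response of a mutant and that of Col was called in 22 of 110 comparisons (20%, background 21.5%). Between mutants that differ by 1 mutation, 2 of 200 were called (1%, background 5.56%). Each of these shares lay at or below the share among all tested genes, but the directions were not alike. For the response 18 calls of members were higher (15%, background 12.4%) and 2 lower (1.67%, background 5.64%). Against Col under -Pi 6 were higher (5.45%, background 8.5%) and 2 lower (1.82%, background 3.83%). For the difference in response 13 were higher (11.8%, background 15.2%) and 9 lower (8.18%, background 6.26%). The fit with library class as a term gave 12, 2, 0, 9 and 0 calls in the same order, with backgrounds of 11.8%, 6.84%, 2.12%, 9.44% and 3.93%. In the fit without that term, 82 of 120 member responses had an adjusted p under 0.05 whatever the fold. The share of all tested genes at that looser rule was not counted.

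The share of all tested genes that was called differed between genotypes, and the members' calls are read against it. For the response it was 14.4% in Col, 11.3% in phr1, 12.7% in phl1, 31.1% in phl2, 30.8% in phl3, 11.4% in phl4, 13.9% in phr1phl1, 22% in phr1phl2, 24.4% in phr1phl3, 9.26% in phr1phl4, 14.4% in the triple and 21% in the quadruple mutant. Against Col under -Pi it was 3.1% in phr1, 0.25% in phl1, 15.1% in phl2, 13.8% in phl3, 8.66% in phl4, 11.5% in phr1phl1, 14.4% in phr1phl2, 20.3% in phr1phl3, 18.9% in phr1phl4, 12.4% in the triple and 17.1% in the quadruple mutant. For the difference in response from Col it was 5.67% in phr1, 8.76% in phl1, 35.1% in phl2, 32.7% in phl3, 9.97% in phl4, 17.8% in phr1phl1, 30.2% in phr1phl2, 34.7% in phr1phl3, 14.9% in phr1phl4, 16.4% in the triple and 30.3% in the quadruple mutant. The highest shares for the response and for its difference from Col were in phl2 and phl3 or phr1phl3, whose libraries changed class with the medium.

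PLT1 was the only one of the 10 genes called in Col roots, where 14.4% of all tested genes were called. It read 3.57, 4.35 and 6.47 RPKM in the 3 +Pi libraries of Col and 12.4, 12.9 and 12.5 in the 3 -Pi libraries. The groups did not overlap, and the -Pi libraries were far closer to each other than the +Pi libraries. PLT1 thus rose by a log2 of 1.26 ± 0.20 (SE, limma adjusted p = 8.45e-07), or 1.09 with the class term. Without Col +Pi replicate 1, the only class 2 library among the 6 and the lowest in PLT1, the call remained. PLT2 stood just under the fold threshold in Col, at 2.74, 4.22 and 3.85 RPKM under +Pi and 7.49, 7.98 and 8.71 under -Pi (log2 0.99 ± 0.14, adjusted p = 7e-08).

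The same direction was seen without PHR1. In phr1, whose 6 libraries were all class 1, PLT1 went from 6.8, 7 and 7.45 RPKM to 14.8, 15.1 and 13.8 (log2 0.95 ± 0.20, adjusted p = 0.000153, under the fold threshold). PLT2 went from 4.36, 4.66 and 3.97 to 10.9, 9.22 and 9.56 and was called (log2 1.03 ± 0.14, adjusted p = 2.91e-08). In both genes the 3 phr1 libraries under -Pi lay above all 3 under +Pi. The call of PLT2 in phr1 was lost without phr1 +Pi replicate 3 (log2 0.98) or without phr1 -Pi replicate 1 (0.97). In the triple mutant PLT1 had a log2 response of 0.98 ± 0.20 (adjusted p = 8.04e-05), and was called with the class term (1.03). PLT2 had a positive response at an adjusted p under 0.05 in 11 of 12 genotypes, the exception being phl2 at -0.04. This rule has no fold threshold, and over the 10 genes 82 of 120 responses passed it. The share among all tested genes was not counted.

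In phl2, PLT1 was lower under -Pi than under +Pi. It read 9.85, 10.3 and 10.2 RPKM under +Pi and 6.33, 5.29 and 4.83 under -Pi, with no overlap (log2 -0.78 ± 0.20, adjusted p = 0.000749, not called). This response differed from that of Col by -2.04 ± 0.29 (adjusted p = 2.6e-07), or -1.20 with the class term, and both were called. The PLT1 response was also called below that of Col in phl3 (-1.54), phr1phl3 (-1.53), phr1phl2 (-1.44) and phr1phl4 (-1.05). With the class term these 4 differences were -0.70, -0.85, -0.82 and -0.70 and none was called, and the difference in phr1phl4 was also lost without Col +Pi replicate 1 (-0.89) or any 1 of 3 libraries of phr1phl4. PLT2 differed from Col in phl2 alone by this rule (-1.02 ± 0.20, -0.64 with the class term and under the threshold, -0.88 without Col +Pi replicate 1, and under the fold threshold without either of 2 others). All these differences share the 6 libraries of Col.

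Under -Pi, PLT1 ranged over groups from 5.48 ± 0.769 RPKM in phl2 to 14.6 ± 0.692 in phr1 (SD, n = 3). Under +Pi it ranged from 4.8 ± 1.5 in Col to 10.8 ± 0.468 in phr1phl2. With the 24 groups put in order of their mean, 22 of 23 neighbouring pairs overlapped in PLT1 and all 23 in PLT2. The gap fell between Col -Pi and the 2 groups above it, the triple mutant and phr1 under -Pi. Against Col under -Pi, PLT1 was called lower in phl2 (log2 -1.08 ± 0.20, -0.57 with the class term, no call). Against Col under +Pi it was called higher in phr1phl2 (1.06 ± 0.20, adjusted p = 0.000118, background 5.95%), where the log2 was 0.78 with the class term and 0.90 without Col +Pi replicate 1, and neither was called.

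**Figure D1:**
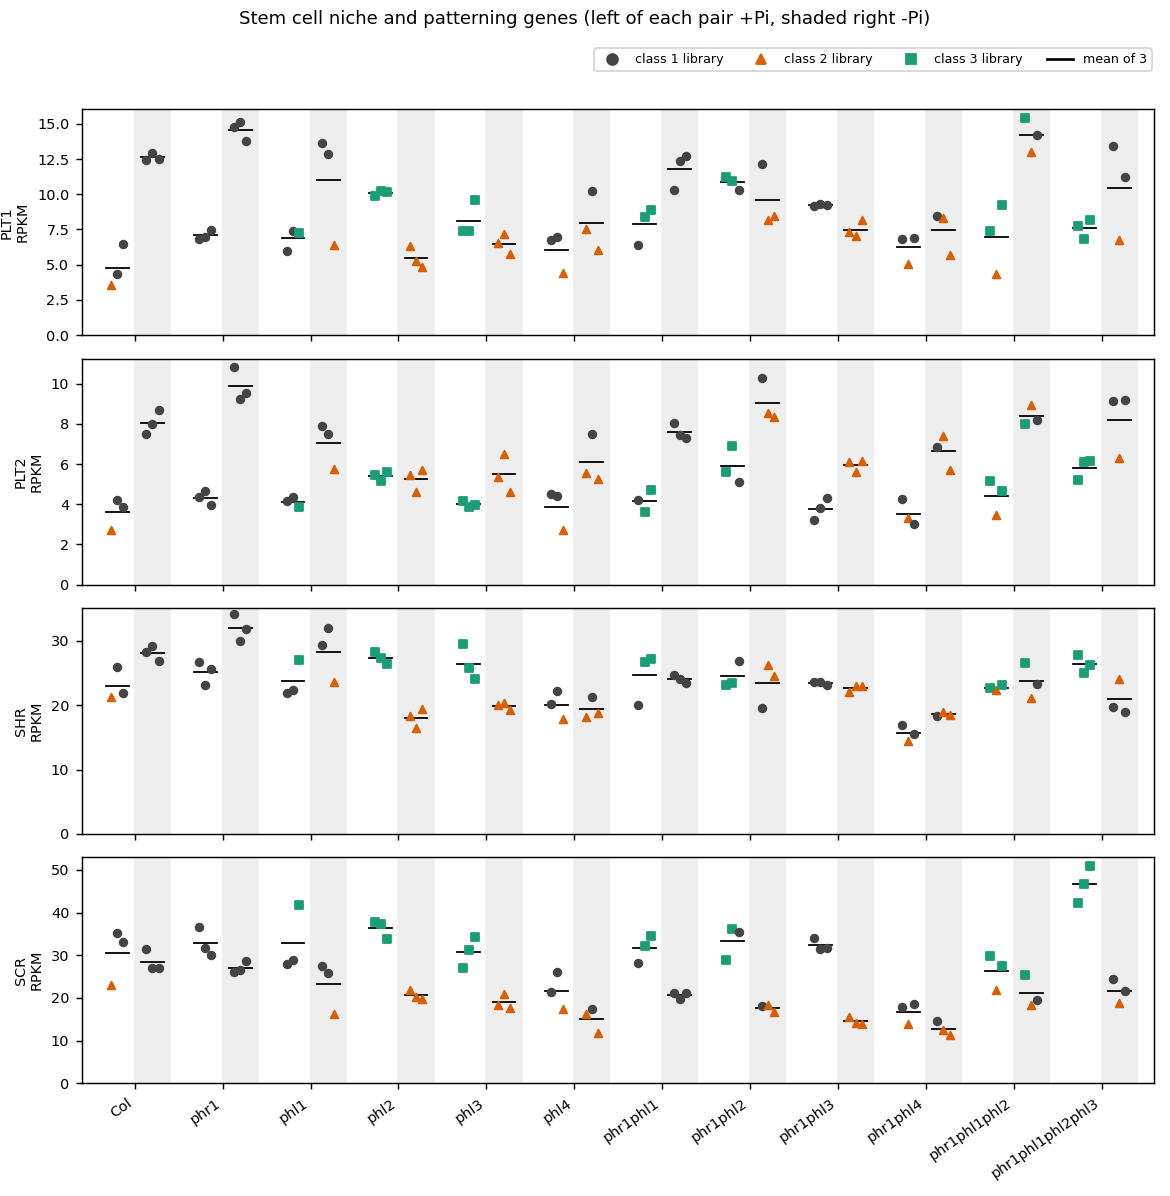
RPKM of PLT1, PLT2, SHR and SCR in each of 72 libraries, by genotype and medium (left +Pi, shaded right -Pi). Points are libraries, coloured by library class, and lines are means of 3; PLT1 in Col lies at 3.57 to 6.47 under +Pi and at 12.4 to 12.9 under -Pi, and orange class 2 libraries often lie low in PLT1 and SCR.

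SHR varied least among groups but for KNOLLE, by 2.04 times between the lowest and highest group mean. It read 21.3, 25.9 and 21.9 RPKM in Col under +Pi and 28.3, 29.2 and 26.8 under -Pi. The groups did not overlap, but the log2 difference was small (0.28 ± 0.11, adjusted p = 0.0309). SHR was called in 0 of 12 genotypes by limma, with an unadjusted p under 0.05 in 7 of them. SHR had an adjusted p under 0.05 in 5 (2 higher and 3 lower under -Pi), which missed only the fold threshold. Its lowest log2 response was -0.57 in phl2 (-0.39 with the class term) and its highest 0.34 in phr1. The lowest group mean was 15.6 ± 1.18 in phr1phl4 under +Pi and the highest 32 ± 2.08 in phr1 under -Pi.

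SCR was called lower under -Pi in 2 of 12 genotypes, and was lower at an adjusted p under 0.05 in 8. Its log2 response had a negative sign in all 12, from -0.08 ± 0.16 in Col (adjusted p = 0.721) to -1.11 ± 0.16 in phr1phl3 (adjusted p = 6e-08). In phr1phl3 it read 34.2, 31.4 and 31.6 RPKM under +Pi and 15.5, 14.1 and 13.9 under -Pi. In the quadruple mutant it read 42.3, 46.8 and 51 under +Pi, the highest group of all, and 24.5, 18.8 and 21.7 under -Pi. Neither pair of groups overlapped, and both were called lower, the quadruple mutant at -1.08 ± 0.16 (-0.98 without its -Pi replicate 2). With the class term both were -0.78 and not called.

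The SCR response was called below that of Col in the same pair of genotypes, at -1.0 ± 0.23 in the quadruple mutant and -1.03 ± 0.23 in phr1phl3. With the class term the differences were -0.60 and -0.59, and without Col +Pi replicate 1 they were -0.82 and -0.85, none of them called. Leaving out any 1 of 4 other libraries for the quadruple mutant, or 2 others for phr1phl3, also ended the call. Against Col under -Pi, SCR was lower at an adjusted p under 0.05 in 9 of 11 mutants. The share of all tested genes at that rule was not counted. Means were lowest in phr1phl4 (12.8 RPKM), phr1phl3 (14.5) and phl4 (15.1), whose libraries overlapped. SCR was called lower only in phr1phl4, at 14.6, 12.6 and 11.2 RPKM against 31.5, 27.1 and 27 (log2 -1.10 ± 0.16, -0.88 with the class term, no call). It was also called lower there than in phr1 (-1.03 ± 0.16, -0.81 with no call under the class term, -0.94 without phr1phl4 -Pi replicate 3 and -0.99 without phr1 -Pi replicate 3), where 12.2% of all genes were called. In these phr1phl4 libraries 5 green tissue markers, led by LHCB1.3, summed to 1109 to 1286 RPKM against 5.39 to 5.65 in Col -Pi, and the part of such tissue in the SCR value was not tested. Under +Pi, SCR in phr1phl4 was already low, at 18, 13.9 and 18.5 RPKM.

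Among the root cap genes, BRN1 and BRN2 are close relatives that act redundantly. The levels of this pair were correlated over the 24 group means (Pearson r = 0.82, groups sharing medium and library class), but they differed in Col. BRN1 read 7.3, 5.18 and 5.28 RPKM in Col under +Pi and 11.4, 13.4 and 9.97 under -Pi, with no overlap (log2 0.87 ± 0.16, adjusted p = 6.92e-06, under the fold threshold). BRN2 read 5.58, 2.39 and 3.89 under +Pi and 2.99, 2.1 and 1.31 under -Pi. These BRN2 groups overlapped and the difference did not pass the test (log2 -0.64 ± 0.31, adjusted p = 0.0809). The highest of the 6 libraries, Col +Pi replicate 1, was the class 2 library.

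BRN1 was higher under -Pi in every genotype in the sense that no -Pi library of a genotype overlapped its +Pi libraries, and it was called in 4 of 12. The groups of PLT2, CYCB1;1 and CDKB2;2 also lay apart in 11 of 12 genotypes each. The share of all tested genes with groups apart was not counted. In phl3 BRN1 read 5.47, 2.59 and 5.13 RPKM under +Pi and 18.6, 18.6 and 18.7 under -Pi (log2 1.91 ± 0.16, adjusted p = 1.65e-15). In phl2 it read 5.19, 4.81 and 5.47 against 15.9, 15.1 and 18.3 (1.5 ± 0.16). These genotypes held the 2 highest groups of all, and both calls remained with the class term (1.74 and 1.33). The calls in phl1 (1.04) and phr1phl1 (1.02) did not, at 0.98 in both, and were each lost when 1 of several libraries was left out (lowest 0.84 and 0.92). The response in phl3 exceeded that of Col by 1.04 ± 0.22, which was under the fold threshold in other fits, at 0.84 with the class term, 0.77 without phl3 +Pi replicate 2, 0.91 without Col +Pi replicate 1 and 0.95 without Col -Pi replicate 3. BRN1 had an adjusted p under 0.05 in 10 of 12 genotypes, all higher under -Pi. Its smallest responses were in phr1phl4 and phr1 (log2 0.34 in both). The genotypes that did not pass included phr1 (adjusted p = 0.0833), from 4.06, 6.54 and 6.89 to 7.63, 7.12 and 7.76 RPKM.

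BRN2 had the lowest level of the 10 genes and varied most, from 0.899 to 11.6 RPKM over libraries and by 7.18 times between group means. It also rests on the fewest reads, an estimated median of 96.3 per library and 19.3 in the lowest. BRN2 was called higher under -Pi in 7 of 12 genotypes, the most of any member in the fit without library class. BRN2 was higher at an adjusted p under 0.05 in 8. With the class term it was called in 3 and CDKB2;2 in 4. In the quadruple mutant it read 2.65, 0.985 and 1.72 RPKM under +Pi and 8.01, 11.6 and 6.32 under -Pi (log2 1.80 ± 0.31, adjusted p = 2.15e-06, 1.3 with the class term). In the triple mutant it read 1.1, 4.47 and 1.02 against 5.26, 7.96 and 6.66 (1.4 ± 0.31, 1.31 with the class term), and in phr1phl1 3.03, 1.09 and 0.899 against 6.7, 3.74 and 5.19 (1.27 ± 0.31, 1.09 with the class term). In each of these 3 genotypes the groups did not overlap and the call remained with the class term.

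In the other 4 genotypes the BRN2 call was lost with the class term. The log2 response was 1.84 in phl3 (0.89 with the term), 1.62 in phl2 (0.66), 1.26 in phr1phl3 (0.58) and 1.11 in phl1 (0.79). In phl1 the call rested on 1 class 2 library, at 7.9 RPKM beside 2.02 and 3.13, and was 0.66 without it. In phr1, where class did not differ, BRN2 read 0.951, 1.2 and 1.46 under +Pi and 2.6, 2.06 and 2.29 under -Pi. Those groups did not overlap, though the difference did not pass the test (0.59 ± 0.31, adjusted p = 0.134).

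Against Col under -Pi, BRN2 was called higher in 6 mutants, among them the 3 in which the lateral root markers summed highest (phl2, phl3 and the quadruple mutant). The largest differences were 1.62 ± 0.31 in the quadruple mutant, 1.61 in phl3, 1.45 in phl2 and 1.3 in the triple mutant, and no library of these groups overlapped Col. It was also called in phr1phl3 (1.27) and phl4 (1.01, and 0.80, 0.81 and 0.99 without phl4 -Pi replicate 3, Col -Pi replicate 3 and phl4 -Pi replicate 1). With the class term only the quadruple (1.39) and triple (1.17) mutants were called, and phl2, phl3, phr1phl3 and phl4 were at 0.76, 0.93, 0.59 and 0.56. In the quadruple mutant with class 1 libraries alone, the difference from Col was 1.41 and called. In phr1 under -Pi the log2 difference from Col was 0.11. Adding phl3 to phr1 gave a call under -Pi (phr1phl3 against phr1, 1.16 ± 0.31, background 13.4%), which was 0.47 with no call under the class term.

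Under +Pi, BRN2 was called lower than Col in phr1 (-1.12 ± 0.31, background 2.45%) and phl1 (-1.10 ± 0.31, background 4.02%). Neither was called with the class term (-0.90 and -0.78) or without Col +Pi replicate 1 (-0.89 and -0.87), and that of phr1 was also lost without phr1 +Pi replicate 1 (adjusted p = 0.0715). The BRN2 response was called above that of Col in all 11 mutants, by 1.19 to 2.49, beside the Col log2 response of -0.64, and all 11 comparisons share the same 6 Col libraries. With the class term 7 of the 11 remained, at 1.01 in phr1, 1.21 in phl1, 1.08 in phl2, 1.3 in phl3, 1.51 in phr1phl1, 1.73 in the triple and 1.72 in the quadruple mutant. Without Col +Pi replicate 1 the differences in phr1, phl1, phl4 and phr1phl4 were no longer called, at log2 1.01, 1.52, 1.02 and 0.96 (adjusted p = 0.205, 0.0585, 0.128 and 0.124), so that in the first 3 the fold stayed over the threshold and the p did not pass. The difference in phr1 was also lost without any 1 of 9 other libraries, that in phl4 without any 1 of 5 and that in phr1phl4 without any 1 of 4, and that in phl1 without phl1 -Pi replicate 3 (1.31, adjusted p = 0.0994).

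SMB, which brings root cap cells to maturity and to programmed death, was called in 0 of 12 genotypes by limma, with an unadjusted p under 0.05 in 9. SMB was higher under -Pi at an adjusted p under 0.05 in 8 of the 12, which missed only the fold threshold. In Col it read 5.42, 5.27 and 5.74 RPKM under +Pi and 5.25, 4.58 and 4.79 under -Pi (log2 -0.14 ± 0.12, adjusted p = 0.343). Its highest responses were in the triple mutant (0.78 ± 0.12, 0.71 with the class term) and the quadruple mutant (0.65 ± 0.12, 0.46 with the class term). The triple mutant went from 3.44, 4.63 and 3.47 to 6.77, 8.2 and 6.9 RPKM, with no overlap. Under +Pi, Col had the highest mean of SMB, and its 3 libraries lay above all libraries of each mutant group but with log2 differences of only -0.63 to -0.28, so none was called.

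**Figure D2:**
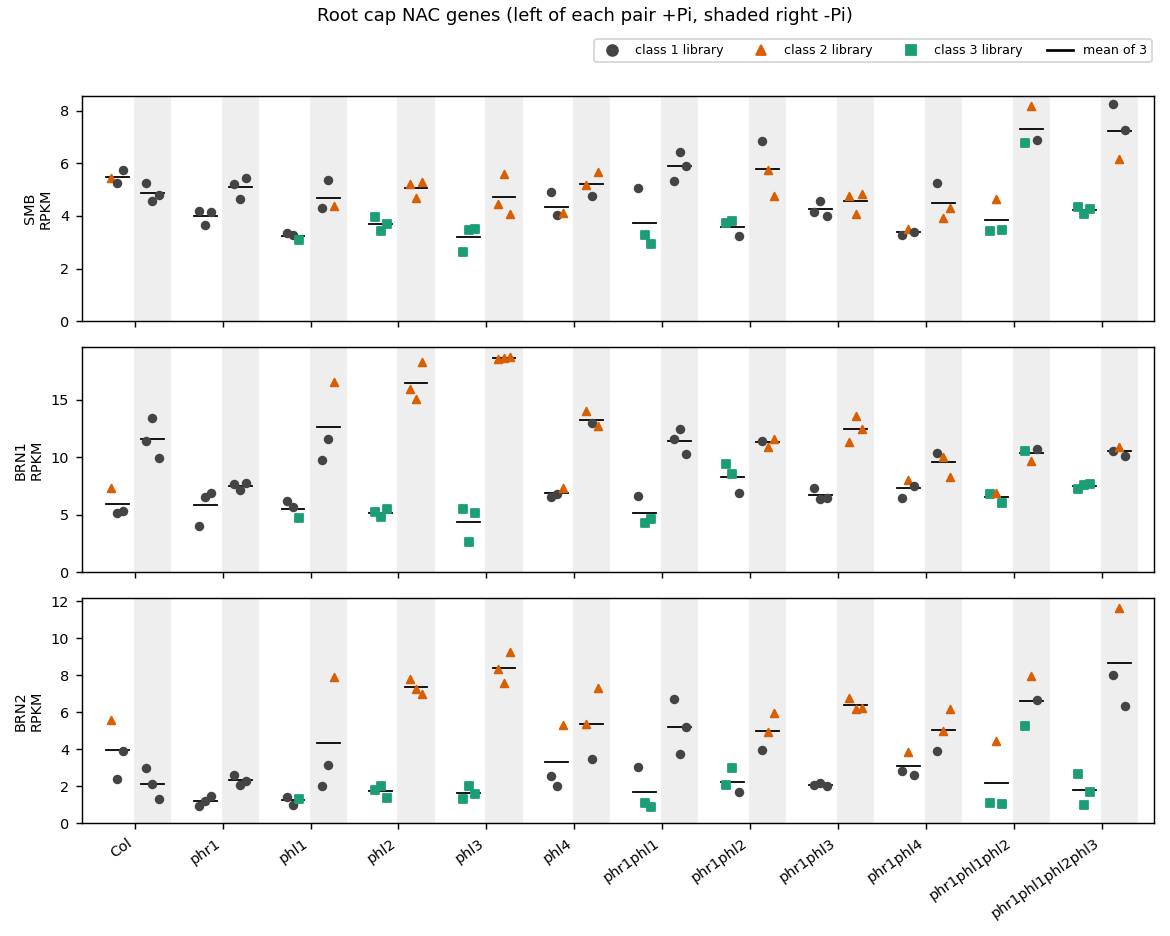
RPKM of SMB, BRN1 and BRN2 in each of 72 libraries, by genotype and medium (left +Pi, shaded right -Pi), with lines at the mean of 3. BRN1 in phl3 goes from 2.59 to 5.47 under +Pi to 18.6 to 18.7 under -Pi, and in groups of mixed class the orange class 2 library is the highest in BRN2.

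Over the 24 group means, CYCB1;1 had a Pearson r of 0.92 with CDKB2;2 and 0.86 with KNOLLE, and CDKB2;2 one of 0.76 with KNOLLE, as a description of groups that share medium and class. The root cap gene BRN1 lay closer than KNOLLE to both, at 0.91 with CDKB2;2 and 0.89 with CYCB1;1. In many plant genes of mitosis, MYB3R factors bind an element whose core is AACGG. This motif, on either strand from 250 bases before to 50 after the start, was in 24.7% of 27443 promoters and present at least 2 times in 4.89%. CYCB1;1 and KNOLLE each held 3 matches and CDKB2;2 held 1. BRN2 held 1, and PLT1, PLT2, SHR, SCR and SMB none. The 250 bases before the annotated start (RefSeq annotation of TAIR10.1, in the direction of the gene) are shown for the 3 division genes, all on minus strands (CYCB1;1 on chromosome 4, CDKB2;2 and KNOLLE on chromosome 1), with matches to either motif in capitals, CCGTT being AACGG on the other strand.
CYCB1;1: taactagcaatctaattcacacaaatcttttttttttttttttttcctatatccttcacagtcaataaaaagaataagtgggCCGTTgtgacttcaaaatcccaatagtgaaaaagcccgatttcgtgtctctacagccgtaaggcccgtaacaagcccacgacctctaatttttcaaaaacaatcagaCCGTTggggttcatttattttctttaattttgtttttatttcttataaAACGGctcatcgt
CDKB2;2: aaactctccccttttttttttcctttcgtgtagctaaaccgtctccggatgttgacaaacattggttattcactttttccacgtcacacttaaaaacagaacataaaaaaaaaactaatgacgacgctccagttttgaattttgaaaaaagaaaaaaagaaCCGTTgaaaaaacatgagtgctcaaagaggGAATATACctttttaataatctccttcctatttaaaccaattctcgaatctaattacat
KNOLLE: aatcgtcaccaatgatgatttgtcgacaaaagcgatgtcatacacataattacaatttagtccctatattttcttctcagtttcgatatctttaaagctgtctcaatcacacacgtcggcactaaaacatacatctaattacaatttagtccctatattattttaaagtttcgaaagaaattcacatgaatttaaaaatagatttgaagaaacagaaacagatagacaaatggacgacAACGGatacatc

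Of the 3 KNOLLE matches only that at -12 lies in the printed window, and those at 12 and 36 lie after the start. CDKB2;2 also held GNATATNC, the sequence to which PHR1 is known to bind, at -59 from its start (GAATATAC above), and so did PLT1, at -203. PLT2, SHR, SCR, SMB, BRN2, CYCB1;1 and KNOLLE had none, and 6.25% of all promoters held it. A match describes letters in this window and does not show binding.

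CDKB2;2 had the largest response of any member. In phl3 it read 7.76, 7.1 and 7.98 RPKM under +Pi and 35.3, 34.3 and 33.5 under -Pi (log2 2.04 ± 0.16, adjusted p = 7.35e-16, 1.77 with the class term). In phl2 it read 11, 9.61 and 10.3 against 30.8, 34.5 and 30.3 (1.54 ± 0.16, 1.28 with the class term), and in phl1 8.17, 9.24 and 9.94 against 22.7, 20.6 and 33.3 (1.37 ± 0.16, 1.28 with the class term). None of these groups overlapped, and the 3 calls remained with the class term. In Col it read 15.5, 8.56 and 12.1 against 22.3, 25.5 and 23.3, which was 0.95 ± 0.16 and not called, but 1.00 and called with the class term. The calls in phr1phl2 (1.14) and phl4 (1.02) ended with the class term (0.97 in both), and without phr1phl2 +Pi replicate 3 (0.99) or phl4 +Pi replicate 2 (0.90).

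The CDKB2;2 response did not pass the test in phr1phl4, where it read 18.9, 17.6 and 17.5 RPKM under +Pi and 18, 17.7 and 15.6 under -Pi (log2 -0.07 ± 0.16, adjusted p = 0.797). These groups overlapped, and the +Pi mean was the highest among +Pi groups. The response differed from that of Col by -1.03 ± 0.23 (adjusted p = 0.000384), or -1.12 with the class term, and both were called. It was -0.82 and not called without Col +Pi replicate 2, the lowest Col library, and -0.97 to -0.99 without any 1 of 3 others. The response in phl3 exceeded that of Col by 1.08 ± 0.23, but was under the fold threshold with the class term (0.77) and without Col +Pi replicate 1 (0.90). CDKB2;2 overlaps AT1G20925 on the other strand by 192 bases, and since the labels do not state strand, reads there cannot be told apart. AT1G20925 read at most 0.428 RPKM in any group mean.

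CYCB1;1 and KNOLLE were called in 0 of 12 genotypes by limma, with an unadjusted p under 0.05 in 9 and 7 of them. The adjusted p was under 0.05 in 8 for CYCB1;1, all higher under -Pi. For KNOLLE it was under 0.05 in 7, with 6 higher and 1 lower. These missed only the fold threshold. CYCB1;1 came nearest in phl3, at 4.18, 4.55 and 3.58 RPKM under +Pi and 9.85, 9.07 and 8.57 under -Pi, with no overlap (log2 1.00 before rounding just under the threshold, SE 0.14, adjusted p = 3.35e-08, 0.75 with the class term). In Col its log2 response was 0.38 ± 0.14 (adjusted p = 0.0272), from 6.74, 4.17 and 5.06 to 7.2, 6.94 and 7.14 RPKM. KNOLLE had the highest levels of the 3, at 25.3 to 49.9 RPKM over group means. In Col it read 35.1, 26.7 and 27.3 under +Pi and 38.1, 32.9 and 37.4 under -Pi, which overlapped (log2 0.28 ± 0.16, adjusted p = 0.137).

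KNOLLE responses ran from 0.76 ± 0.16 in phl3 (0.45 with the class term) to -0.52 ± 0.16 in phr1phl4 (-0.62 with the class term). In phr1phl4 it read 43.1, 62 and 44.5 RPKM under +Pi and 31.8, 34.9 and 35.4 under -Pi, with no overlap but too small a fold for a call (adjusted p = 0.00783). CYCB1;1 also had its lowest response there, at -0.29 ± 0.14 (adjusted p = 0.132). KNOLLE overlaps NPQ1 on the other strand by 464 bases, and NPQ1 read 1.41 to 4.18 RPKM over group means. Which share of reads in the overlap belongs to either gene was not tested.

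**Figure D3:**
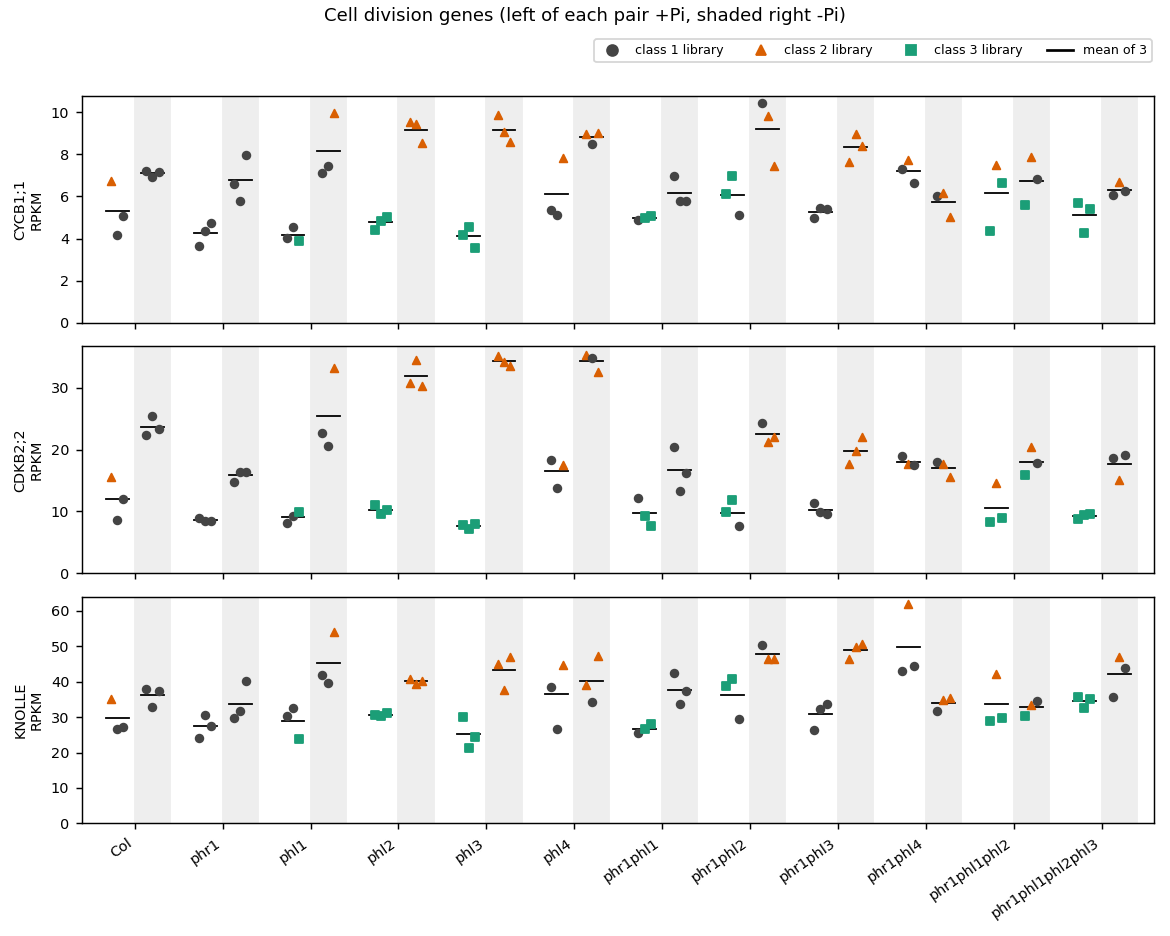
RPKM of CYCB1;1, CDKB2;2 and KNOLLE in each of 72 libraries, by genotype and medium (left +Pi, shaded right -Pi), with lines at the mean of 3. CDKB2;2 in phl3 goes from 7.1 to 7.98 under +Pi to 33.5 to 35.3 under -Pi, while in phr1phl4 both media lie between 15.6 and 18.9.

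**Figure D4:**
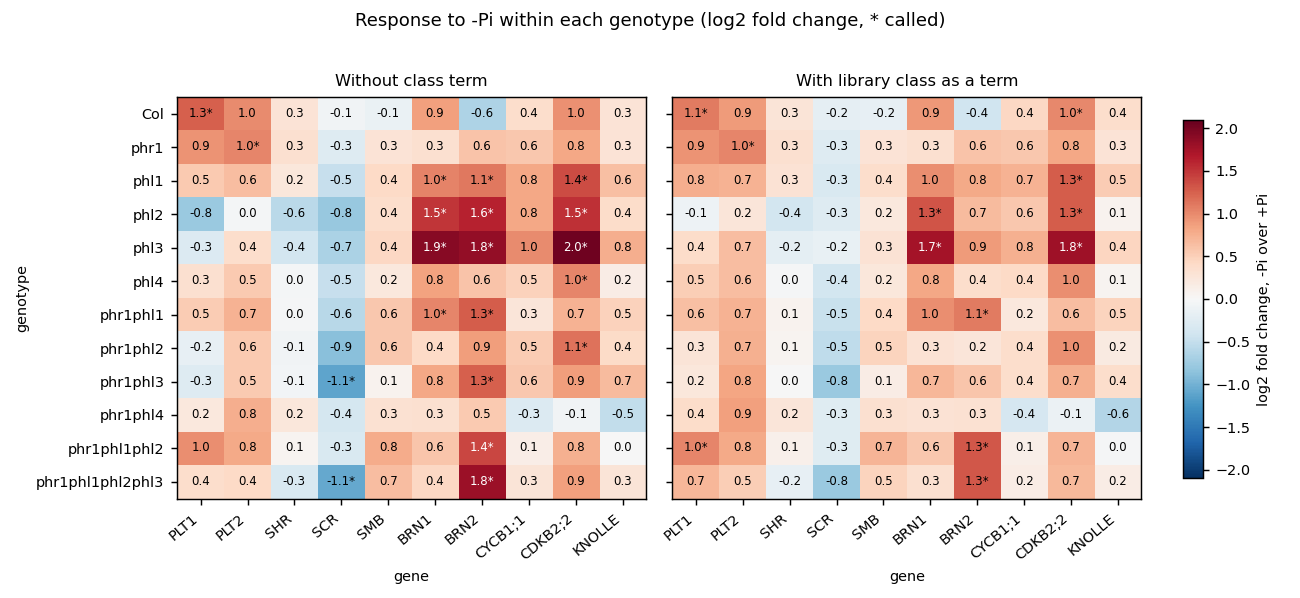
Log2 fold change of -Pi over +Pi for the 10 genes in 12 genotypes, without (left) and with (right) library class as a term, and with an asterisk on each call. The left panel holds 20 calls and the right panel 12, of which 10 are on both; the calls of BRN1 and CDKB2;2 in phl2 and phl3 are on both and those of SCR only on the left.

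Library class moved with several of these genes within a group, where genotype and medium are the same. In 10 groups class 2 stood beside another class, and the genes that defined the classes did not include these 10. The class 2 libraries were above all others of their group for BRN2 in 10 of 10 groups (median log2 difference 0.66) and below all others for PLT1 in 10 of 10 (median -0.51). SCR was below in 9 of 10 (median -0.34), PLT2 below in 7 and above in 1 (median -0.38), SHR below in 7 and above in 3 (median -0.15), and KNOLLE and CYCB1;1 were above in 8 (medians 0.34 and 0.22). CDKB2;2 was above in 4 and below in 3 (median 0.05), SMB above in 4 and below in 3, and BRN1 above in 6 and below in 2 (median 0.08). The part of class in each call beyond the fits given above was not tested.

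**Figure D5:**
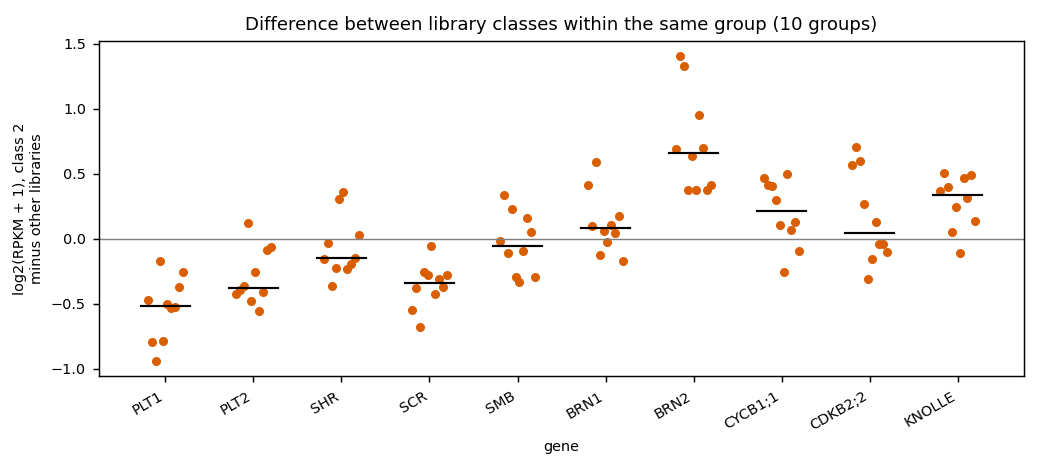
Difference in log2(RPKM + 1) between class 2 libraries and the other libraries of the same group, for the 10 groups that hold both. Each point is a group and each line the median; BRN2 lies above 0 and PLT1 below 0 in all 10, and CDKB2;2 on both sides.

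The genes whose 24 group means lay closest to a member are given as a description, with groups sharing medium and class. For PLT2 they were PLT3 (listed as AIL6, Pearson r = 0.93), a PLETHORA relative, and the auxin response factor MP (0.92). For CYCB1;1 the closest was its relative CYCB1;2 (listed as CYC1BAT, 0.96), and for CDKB2;2 the annexin gene ANNAT1 (0.98). The closest to SCR was the RNA-binding flowering regulator FPA (0.96), to BRN2 the microtubule end protein gene EB1a (0.95) and to PLT1 the SUMO-activating enzyme gene SAE2 (0.93). The closest to BRN1 was GPK1 (0.95), to SHR AT1G49730 (0.92), to KNOLLE AT3G59650 (0.90) and to SMB AT2G20362 (0.88). Among members, the lowest r was that of SCR and BRN2 (-0.75), while PLT1 and PLT2 had 0.76 and SHR and SCR 0.64.

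Other genes of the same pathways were read from lists. Of 29 tested genes of the stem cell niche and patterning, 3 were higher and 1 lower in Col under -Pi (13.8% called, background 14.4%, median log2 0.15 against 0.02 over all genes), so the share was near the background. PLT3 rose from 11.9 to 29.5 RPKM (log2 1.25 ± 0.12, adjusted p = 8.3e-13), MP from 8.21 to 23 (1.39 ± 0.17), and RGF1, a peptide that sustains PLETHORA levels, from 1.34 to 5.12 (1.37 ± 0.26). SHY2, an auxin response repressor that limits meristem size, fell from 33.1 to 8.18 (-1.89 ± 0.27). Between these groups of Col the green tissue markers went from 204 to 5.48 RPKM, and their part in the SHY2 value was not tested. All 4 calls remained with the class term. The same 4 genes were called in phr1 (PLT3 1.51, MP 1.34, RGF1 1.44 and SHY2 -1.93), with CDC20.2, an activator of anaphase, higher as well (1.04 ± 0.15). In Col 0 of 23 mitosis genes, 0 of 12 genes of DNA replication and 0 of 15 root cap genes were called by limma (background 14.4%), with an unadjusted p under 0.05 in 7, 6 and 7. Of 6 genes of cell cycle exit, SIM, an inhibitor of cyclin-dependent kinases, was lower (-1.35 ± 0.38, -0.98 with no call under the class term). Against Col under -Pi, 2 of the 6 were called in the quadruple mutant, phr1phl3 and phr1phl4 (33.3%, background 17.1%, 20.3% and 18.9%). In phl2 and phl3 it was 1 (16.7%, background 15.1% and 13.8%), and in the other mutants 0.

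Against Col under -Pi, phr1 and phl1 had no call by limma among the 29 stem cell niche genes (background 3.1% and 0.25%), with an unadjusted p under 0.05 in 5 and 1 of them. SHY2 was higher in phr1phl1 (log2 1.32 ± 0.27), the triple mutant (1.48), the quadruple mutant (1.72) and phr1phl4 (1.47), at 21.9 to 30.2 RPKM against 8.18 in Col, and all 4 calls remained with the class term. Green tissue markers under -Pi summed highest in these 4 mutants (135, 184, 318 and 1186 RPKM), and their part was not tested. Of the 29 genes, 2, 1, 4 and 1 were called there (6.9%, 3.45%, 13.8% and 3.45%). The backgrounds were 11.5%, 12.4%, 17.1% and 18.9%. RGF1 was lower in phr1phl1 (-1.27 ± 0.26), with a mean of 1.56 RPKM. In the quadruple mutant WOX5, the quiescent centre homeobox gene, was higher (1.29 ± 0.26) and MGP, a target of SHR, was lower (-1.36 ± 0.11), also with the class term (1.10 and -1.4). In phl2 and phl3, 6 of the 29 genes each were called (20.7%, background 15.1% and 13.8%), among them RGF2, UPB1, WOX5 and CYCD6;1, and 0 of them with the class term.

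Of 15 root cap genes, DMP4 and PASPA3, markers of developmental cell death, were the ones most often called. In phr1phl4, phr1phl3, phl4 and the triple mutant 1 of 15 was called (6.67%, background 18.9%, 20.3%, 8.66% and 12.4%). In the quadruple mutant, phr1phl2 and phl2 it was 2 (13.3%, background 17.1%, 14.4% and 15.1%). In phl3 alone the share, 3 of 15, was above its background (20% against 13.8%). DMP4 read 52.7 RPKM in Col under -Pi and was lower in phr1phl4 (10.4, log2 -2.24 ± 0.46), phr1phl3 (12.1, -2.03), phr1phl2 (13.3, -1.94), phl4 (18.4, -1.48) and the quadruple mutant (19.9, -1.39), and with the class term the log2 differences were -1.76, -1.31, -1.46, -1.0 and -1.15. It was also called in phl2 (-1.47) and phl3 (-1.41), but not with the class term (-0.75 and -0.69). PASPA3 fell from 13.7 RPKM in Col to 5.3 in the triple (-1.23 ± 0.12), 5.59 in the quadruple (-1.16) and 6.01 in phr1phl2 (-1.08), with and without the class term. BFN1, a nuclease of dying cap cells, was called higher in phl2 (1.05) and phl3 (1.51), and in phl3 also with the class term (1.03).

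Of 23 mitosis and cytokinesis genes, MAP65-3, which bundles microtubules of the division plane, was lower than in Col in phr1phl4 (log2 -1.49 ± 0.31, -1.03 with the class term) and the quadruple mutant (-1.27 ± 0.31, -1.04 with the class term). CYCB1;4 was lower in phr1phl4 (-1.07 ± 0.14, -0.88 with the class term, no call). MAP65-3 was also called in phl2 (-1.16) and phr1phl3 (-1.23), but not with the class term (-0.47 and -0.53). Of the 23 genes, 2 were called in phr1phl4 (8.7%, background 18.9%) and 1 in the quadruple mutant (4.35%, background 17.1%). In phl2 and phr1phl3 it was 1 each (4.35%, background 15.1% and 20.3%), so each share was below its background. The median over the 23 genes was -0.45 in phr1phl4 and -0.31 in the quadruple mutant, against 0.07 and 0.12 over all genes. In these same comparisons CYCB1;1, CDKB2;2 and KNOLLE were not called. Against Col under -Pi, CDKB2;2 had an adjusted p under 0.05 in 7 of 11 mutants, 4 lower and 3 higher (log2 -0.55 to 0.52). It read 17.1 RPKM in phr1phl4, 17.6 in the quadruple mutant, 19.9 in phr1phl3 and 31.9 in phl2 against 23.7 in Col, with no overlap with Col. By that rule CYCB1;1 passed in 1 mutant and KNOLLE in 2, all higher.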

How the data were processed

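The authors deposited 1 table of RPKM with 33602 genes and 1 column for each of 72 libraries (0 unused columns, 0 identical pairs). The submitters' processing notes name TopHat, edgeR and TAIR10, with roles and versions not given in the sources used here. RPKM keeps no counts, so depth (11 to 40.2 M reads, median 22.8 M) was estimated from the steps between low values, of which a median of 46.1% lay within 0.05 of a whole read. Read counts given for members rest on this estimate. RNA was selected with oligo(dT), per the labels' protocols, and strand was not stated. Plates held agar or agarose, and no label says which library had which.

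Log2(RPKM + 1) was fitted with limma 3.58.1 (R 4.3.3) with 24 group means, trend and robust settings, over 65 contrasts and 21206 genes, with Benjamini-Hochberg adjustment over all of them. A fold change on this scale understates the change of genes with low RPKM, such as BRN2. The fit was tested on simulated data. Library classes came from k-means (50 starts, mean silhouette 0.57) on the slopes of values on GC content, length and adenine content. Alternatives were a pseudocount of 0.1, no filter, rescaling by median ratio, the compared groups alone, a replicate block, the class term, class 1 alone and each library left out. RefSeq's TAIR10.1 annotation gave names, lengths and promoters, and held 32835 of the IDs. Its assembly name differs from that of the deposited values, so no genome coordinates are given. The promoter of BRN1 is not reported here.

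The 10 members and the gene lists were chosen with earlier results of these data known. Named genes are all members, the genes closest to each member by correlation of group means (up to 3), and up to 4 called genes of each list per comparison.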

Additional observations from a re-analysis of the deposited data

Results flagged for a closer look

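For 22 gene and mutant pairs, the response to -Pi in the mutant differed from that in Col by a test of the difference itself, the interaction term of the limma fit. Values are log2 differences, mutant response minus Col response. All share the 6 Col libraries, and without Col +Pi replicate 1 the number of pairs called was 12.

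BRN2 differed in all 11 mutants, by 1.24 in phr1, 1.75 in phl1, 2.26 in phl2, 2.49 in phl3, 1.25 in phl4, 1.92 in phr1phl1, 1.53 in phr1phl2, 1.91 in phr1phl3, 1.19 in phr1phl4, 2.05 in the triple mutant and 2.44 in the quadruple mutant. PLT1 differed by -2.04 in phl2, -1.54 in phl3, -1.44 in phr1phl2, -1.53 in phr1phl3 and -1.05 in phr1phl4. PLT2 differed by -1.02 in phl2. SCR differed by -1.0 in the quadruple mutant and -1.03 in phr1phl3. BRN1 differed by 1.04 in phl3, and CDKB2;2 by 1.08 in phl3 and -1.03 in phr1phl4. With library class as a term 9 of the 22 were called, 7 of BRN2, PLT1 in phl2 and CDKB2;2 in phr1phl4.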

How the results depend on the processing

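With library class as a term the number of member calls went from 20 to 12 for the response to -Pi (10 shared), 8 to 2 against Col under -Pi, 3 to 0 against Col under +Pi, 22 to 9 for the difference in response and 2 to 0 between mutants. With a pseudocount of 0.1 the counts against Col under +Pi and between mutants were 9 and 8. Rescaling by median ratio gave 4 between mutants. A fit of the compared groups alone gave 0 under +Pi, and class 1 libraries alone gave 0 under +Pi and 1 between mutants, each over the 5 comparisons left. The cause was not tested.

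With 1 library left out the counts were 18 to 22, 7 to 11, 0 to 7, 12 to 23 and 1 to 4, in the order of the first sentence. Without Col +Pi replicate 1 they were 0 under +Pi and 12 for the difference, and without its replicates 2 and 3 they were 7 and 5 under +Pi. Between mutants they were 1 without phr1 -Pi replicate 3 or phr1phl4 -Pi replicate 3, and 4 without phr1phl4 +Pi replicate 3. None of the 55 called results changed sign under any alternative run. Of the 55, 34 were not called with the class term, 7 after rescaling, 7 in a fit of the compared groups alone, 1 with no filter, 1 with the replicate block and 23 without some 1 library. Class 1 libraries alone allowed 10 of the 55, of which 4 were not called. With the replicate block the counts were 20, 8, 3, 21 and 2. Replicate numbers were not treated as pairs. Of 36 same-numbered pairs of libraries, +Pi and -Pi of 1 genotype, 11 had a correlation of deviations over 0.1 (-0.50 to 0.82), and own numbers were best in 13. The highest were in phl4 (replicates 2 and 3, 0.77 and 0.82) and the triple mutant (replicates 1 and 2, 0.66 and 0.67). Each of these pairs was of the same class on both media, and whether they grew as pairs was not tested.

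BRN2 has an estimated median of 96.3 reads per library, so its values carry the most counting error.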
